A study of Mus musculus with 8 samples.

Results

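The p53 targets examined here are 9 genes that the transcription factor p53 is known to control, out of a set of 10 that also named Trp53, the gene of p53 itself. They were Mdm2, Sesn1, Sesn2, Phlda3, Ccng1, Trp53inp1, Zmat3, Tnfrsf10b and Perp. All probe sets annotated to 1 of these genes alone were taken, and those listed at 0 on every array were left out. This gave 18 of the 24404 probe sets tested, and 9 of the 10720 genes. The annotation used here names 19 probe sets for the 9 genes. The one left out, 1451599_at of Sesn2, was listed at 0. Trp53 was not analysed here, since no probe set carried its name in that annotation.

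RNA came from LSK cells of mouse bone marrow, cells that carry Sca-1 and Kit but no lineage markers, among which are the stem cells of the blood. The control group is 4 wild-type mice. The other group is 4 mice in which Msi2, the gene of the RNA-binding protein Musashi-2, was knocked out conditionally (Msi2 KO). The promoter that drives the deletion and the strain and age of the mice are not given in the sources used here. Values are log2 signals per probe set, so that a difference of 1 is a doubling, and each sample is 1 Affymetrix array.

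p53 is a transcription factor that is held low by the ubiquitin ligase Mdm2 and builds up when DNA is damaged or a cell is otherwise stressed. It then switches on genes that stop the cell cycle, repair DNA, restrain growth signals or kill the cell, and Mdm2 among them, which closes a feedback loop. In blood stem cells p53 is known for its part in quiescence and in the response to irradiation.

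Msi2 signal was lower on every KO array than on every control array for 4 of its 5 probe sets, to an uneven degree. Averaging those 4, the share of the control mean that remained was 73.2%, 63.7%, 15.2% and 40.4% on the KO arrays 1 to 4, and single controls ran from 90.7% to 111%. Msi2 KO 3 was far from all others on the first principal component of the probe sets (69.4, others -39.4 to 17.0), so the members' differences are also given without it. The brightest Msi2 probe set, 1421230_a_at, differed by -1.12, and by -0.55 without that array. Xist, which marks female cells, read low (3.83 to 4.19 on 1427262_at) for control 1 and for Msi2 KO 1 and 2, and high (11.21 to 11.82) for the rest. The Y-linked gene Eif2s3y read 8.05 to 8.14 on control 1 and Msi2 KO 1 and 2, and 3.36 to 3.62 on the rest. By these genes the sexes were not evenly split between the groups. Of 7 measured LSK markers 6 read lower in KO, and Kit was the one that read higher (8.70 in controls and 9.04 in KO). Their mean level left the control range (8.99 to 9.28) only on Msi2 KO 3 (7.71), and the other KO arrays read 9.05 to 9.18. Ly6a, the gene of Sca-1, was not analysed here, and 5 of 6 T cell markers were listed at 0, the other being without a name here. All p-values measure the spread between these 8 arrays, whose number limits the precision.

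The comparison of KO with control asks whether loss of Msi2 in LSK cells goes with a change of p53 target RNAs. No member probe set passed the adjusted threshold of 0.05 in limma (0 of 18, lowest adjusted p 0.291), as none did among all 24404 (0%). Of the 18, 11 read higher and 7 lower in KO, against 12218 of the 24404 higher. At an unadjusted limma p under 0.05, 4 member probe sets were higher and 3 were lower in KO, and the same rule took 4.87% of all probe sets on the higher side and 4.84% on the lower. The 4 higher ones belonged to Phlda3, Ccng1 (2) and Zmat3, and the 3 lower ones all to Sesn1. Without Msi2 KO 3 the counts were 2 higher and 3 lower. All KO arrays lay above all controls for 1 member probe set, of Phlda3, and below them for 2, of Sesn1. Over all probe sets these shares were 3.12% and 2.96%. The members were chosen with earlier results of these data known, so setting the counts beside these shares is a description and no test. The median difference of the 18 was 0.20, and that of all probe sets 0.00051, but probe sets of 1 gene share a target and are not independent. In these bulk samples, fewer cells of a type and less RNA per cell cannot be told apart.

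**Figure D1:**
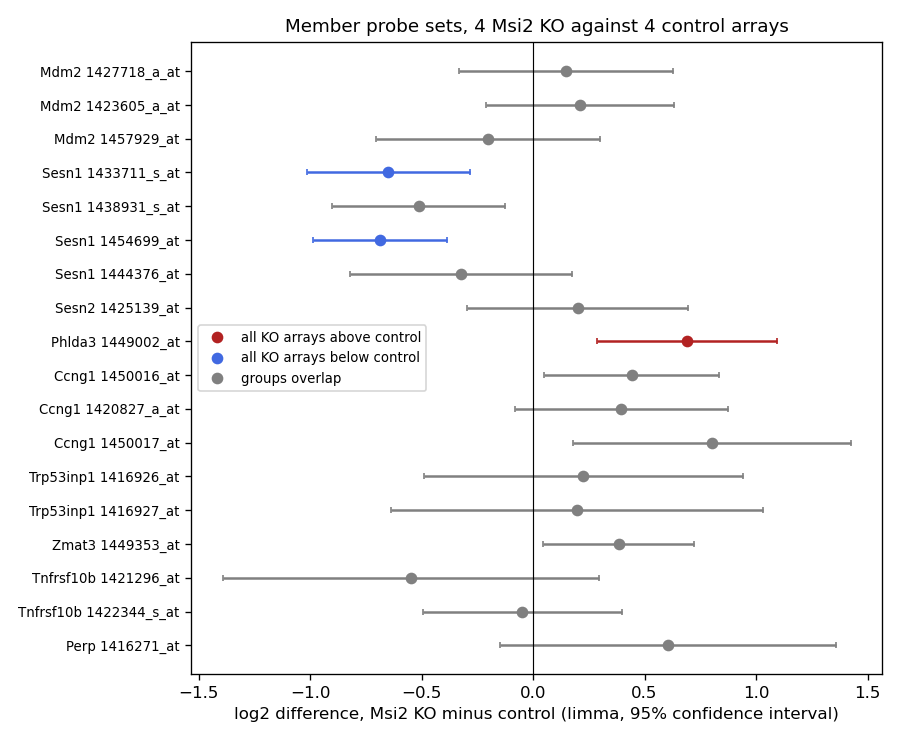
Log2 difference between Msi2 KO and control (x axis) for each of the 18 member probe sets (y axis), from limma, with 95% confidence intervals and n = 4 arrays a group. The intervals of 3 Sesn1 probe sets lie left of 0 and those of Phlda3, Zmat3 and 2 Ccng1 probe sets right of it, while the other 11 include 0.

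Sesn1 encodes sestrin 1, a stress protein known to restrain mTORC1, the kinase complex that drives growth when nutrients are plentiful. Its RNA signal was lower in KO on all 3 of its brighter probe sets. On 1433711_s_at the log2 signal was 9.43, 9.50, 9.41 and 9.53 on controls 1 to 4 and 8.90, 9.16, 8.45 and 8.77 on Msi2 KO 1 to Msi2 KO 4. The controls lay within a narrow band, and every KO array was below it. The means were 9.47 ± 0.06 and 8.82 ± 0.29 (SD, n = 4 each), a 1.57-fold difference. On the log2 scale it was -0.65 (95% confidence interval -1.01 to -0.28), with an adjusted limma p of 0.354. The two-sided exact permutation p was 0.0286, the smallest that 4 arrays against 4 can give.

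Probe set 1454699_at separated the groups in the same direction. Sesn1 read 7.89, 8.14, 7.79 and 7.79 on the controls and 7.32, 7.20, 7.10 and 7.24 on the KO arrays. The difference was -0.69 ± 0.13 (SE), or 1.61-fold, and its limma adjusted p of 0.291 was the lowest of the members. On 1438931_s_at the controls read 8.99, 9.32, 9.36 and 9.36 and the KO arrays 8.91, 9.05, 8.46 and 8.56. Here control 1 read below Msi2 KO 2, so the groups overlapped (difference -0.51, two-sided exact permutation p 0.0571). The fourth, 1444376_at, averaged 4.35 in controls and 4.03 in KO. Both means were below 5, the level under which a mean was called near background here, so no fold is given. Probe sets 1433711_s_at and 1454699_at were designed on the same source sequence, and an ending in _s_at marks probes that can match several transcripts.

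The Sesn1 difference was also present without Msi2 KO 3, at -0.53, -0.42 and -0.65 on 1433711_s_at, 1438931_s_at and 1454699_at. Among the arrays with high Xist alone (3 controls, 2 KO) it was -0.87, -0.84 and -0.74. As a mean over these 3 probe sets, Sesn1 on the KO arrays 1 to 4 was at -0.50, -0.41, -0.87 and -0.69 relative to the control mean, with controls from -0.11 to 0.11. By this mean, the 2 KO arrays with the least Msi2, Msi2 KO 3 and Msi2 KO 4, had the lowest Sesn1. On 1454699_at alone, Msi2 KO 2 (7.20) read below Msi2 KO 4 (7.24). Msi2 KO 3 and Msi2 KO 4 are also the 2 KO arrays with high Xist. Their mean level of erythroid markers (9.54 and 8.55) was above that of Msi2 KO 1 (7.71) and Msi2 KO 2 (8.28). Among 4 arrays these cannot be told apart.

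Sesn2, the gene of the related sestrin 2 and likewise a known stress-induced brake on mTORC1, did not show the Sesn1 pattern. Its measured probe set 1425139_at read 6.30, 6.61, 7.34 and 6.53 on the controls and 7.08, 6.85, 6.71 and 6.94 on the KO arrays. All KO values lay inside the range of the controls, and the difference was 0.20 with an interval of -0.30 to 0.70. It was 0.26 without Msi2 KO 3, 0.07 without control 1, 0.41 without control 3 and 0.0018 in the high-Xist arrays. Sesn3, the third sestrin and best known as a FoxO target, averaged 7.30 ± 0.20 in controls against 7.13 ± 0.63 in KO (SD, n = 4 each). Its difference of -0.17 rested on Msi2 KO 3 at 6.22, and without that array it was 0.13. The differences between the sestrins were not tested.

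Phlda3 encodes a PH-domain protein known to hold back the survival kinase AKT. Its log2 signal was higher on every KO array than on every control. Probe set 1449002_at read 5.09, 5.53, 5.28 and 5.72 on the controls and 5.96, 5.86, 6.27 and 6.28 on the KO arrays. The groups did not overlap, although control 4 and Msi2 KO 2 were only a short step apart. The means were 5.40 ± 0.28 and 6.09 ± 0.21 (SD, n = 4 each), a 1.61-fold difference (0.69, interval 0.29 to 1.09, limma adjusted p 0.354, two-sided exact permutation p 0.0286). The difference was 0.63 without Msi2 KO 3, 0.80 in a fit with Xist as covariate and 0.77 over the high-Xist arrays. The signal was low in both groups, and a single probe set measured Phlda3.

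Ccng1 encodes cyclin G1, which is known to recruit a phosphatase to Mdm2 and is among the genes that p53 induces most reliably. All 3 of its probe sets read higher in KO, and none separated the groups. On 1450016_at the controls read 9.72, 10.13, 10.04 and 9.74 and the KO arrays 10.44, 10.28, 10.66 and 10.02. 3 KO arrays lay above every control, while Msi2 KO 4 lay within their range. The difference was 0.44 ± 0.17 (SE), or 1.36-fold, with a limma adjusted p of 0.475 and a two-sided exact permutation p of 0.0857. On 1450017_at the controls read 6.05, 6.64, 6.26 and 5.43 and the KO arrays 6.54, 6.69, 7.38 and 6.98, a difference of 0.80 ± 0.28 (SE). On 1420827_a_at the values were 8.13, 8.70, 8.03 and 8.25 against 8.76, 8.54, 9.09 and 8.29, a difference of 0.40 ± 0.21 (SE). Msi2 KO 3 read highest on all 3. The 3 probe sets were designed on 1 source sequence and are repeat readings of 1 transcript rather than independent evidence. The differences without Msi2 KO 3 were 0.34, 0.64 and 0.26, in the order given, and with array weights 0.28, 0.69 and 0.20.

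Zmat3, a zinc finger protein that binds RNA and alters splicing and stability of its targets, read 5.60, 5.34, 5.27 and 5.24 on the controls and 5.88, 5.69, 5.93 and 5.49 on the KO arrays (1449353_at). 3 KO arrays were above every control, and Msi2 KO 4 was below control 1. The difference was 0.38 (interval 0.04 to 0.72, limma adjusted p 0.475, two-sided exact permutation p 0.0571). It was 0.32 without Msi2 KO 3 and 0.43 in the high-Xist arrays.

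**Figure D2:**
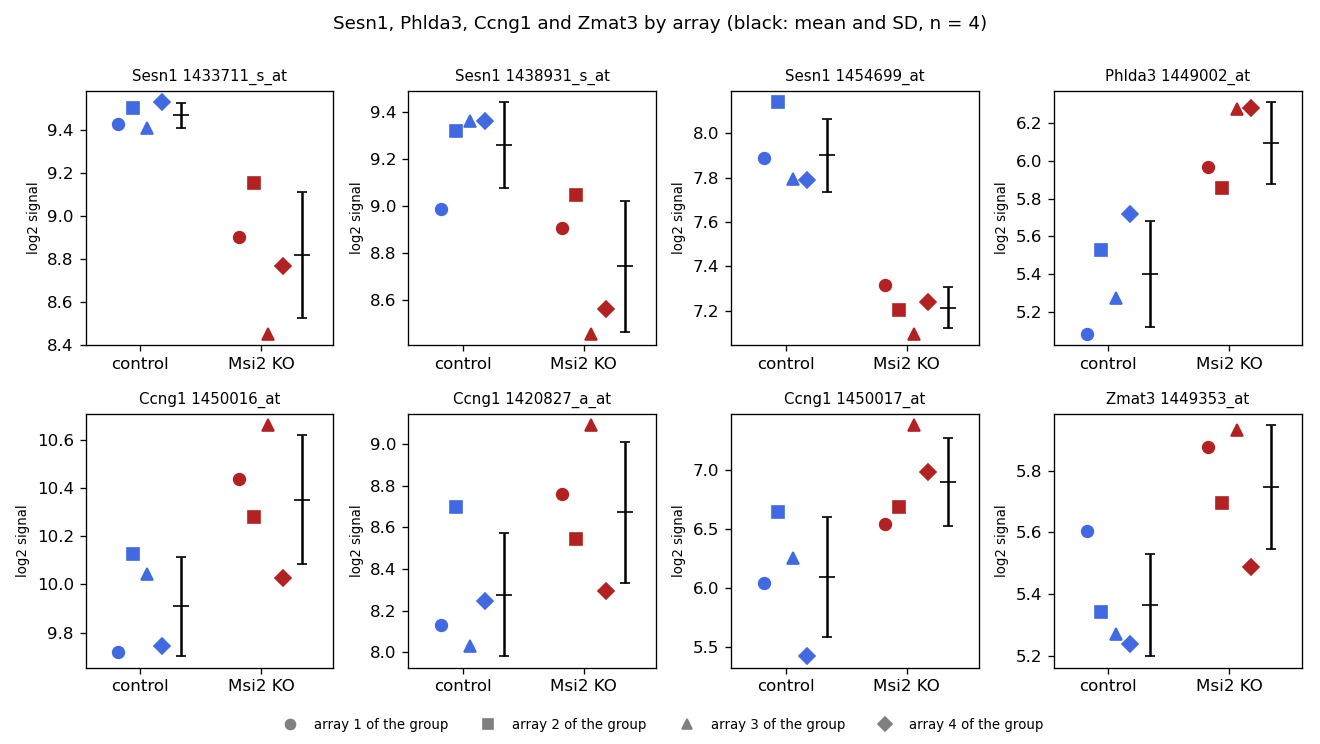
Log2 signal (y axis, which does not start at 0) of each array by group (x axis) for the probe sets of Sesn1, Phlda3, Ccng1 and Zmat3 whose means were above 5. Marker shape gives the array number within its group and is not used as a pairing between groups. Black bars give mean and SD (n = 4). On Sesn1 1433711_s_at the controls sit between 9.41 and 9.53 and the KO arrays between 8.45 and 9.16, while on Phlda3 the order is the other way.

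Because Sesn1 differed from Phlda3, Ccng1 and Zmat3 in direction, the sequence before their annotated starts is shown here where RefSeq gives it. 6 of the 10 genes of the set matched a promoter of the RefSeq table (GRCm38.p6), with 7 starts in all. Zmat3, Trp53inp1, Tnfrsf10b and Perp did not match. Each line holds the 250 bases before a start, 5′ to 3′ on the gene's strand, and capitals mark matches to the p53 half-site consensus. Sesn1 has an upstream and a downstream start, and the probe sets are not assigned to either here.
Sesn1 (upstream start, + strand) chr10:41810324-41810573: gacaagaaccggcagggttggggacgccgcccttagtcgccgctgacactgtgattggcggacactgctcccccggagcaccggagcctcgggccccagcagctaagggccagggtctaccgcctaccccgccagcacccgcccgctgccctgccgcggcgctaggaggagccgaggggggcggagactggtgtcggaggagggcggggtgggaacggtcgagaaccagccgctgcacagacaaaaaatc
Sesn1 (downstream start, + strand) chr10:41887189-41887438: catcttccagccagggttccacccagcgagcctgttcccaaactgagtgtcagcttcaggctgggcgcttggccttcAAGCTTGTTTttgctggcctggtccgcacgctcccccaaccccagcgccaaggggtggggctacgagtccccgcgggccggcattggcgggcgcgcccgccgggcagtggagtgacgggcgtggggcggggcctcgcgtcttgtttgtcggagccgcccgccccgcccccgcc
Phlda3 (+ strand) chr1:135765835-135766084: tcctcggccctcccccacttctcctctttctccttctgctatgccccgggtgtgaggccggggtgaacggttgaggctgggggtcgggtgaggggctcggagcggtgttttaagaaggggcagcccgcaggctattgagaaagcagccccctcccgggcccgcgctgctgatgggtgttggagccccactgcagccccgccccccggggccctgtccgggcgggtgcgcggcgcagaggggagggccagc
Ccng1 (- strand) chr11:40755287-40755536: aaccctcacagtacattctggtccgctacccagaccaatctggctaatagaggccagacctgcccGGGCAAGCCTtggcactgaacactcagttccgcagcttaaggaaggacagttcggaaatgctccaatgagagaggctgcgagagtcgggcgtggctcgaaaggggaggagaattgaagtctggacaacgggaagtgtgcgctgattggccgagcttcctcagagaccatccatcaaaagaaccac

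The p53 half-site consensus has 10 bases and reads the same on both strands. With the base before the start counted as -1, it was matched from -185 to -176 at Ccng1, from -173 to -164 at the downstream start of Sesn1 and from -186 to -177 at Mdm2. It was not matched in the windows of Phlda3, Sesn2 and the upstream start of Sesn1. With the window of Trp53, which held a match from -75 to -66, this made 4 of 7 windows, against 7.13% of the 32851 windows in the table. Each of these 4 windows held only 1 half-site match. Trp53 is not among the targets measured here, and Sesn1 enters the 7 windows with both its starts. The 7 windows differed from all windows in base content, with a median of 65.6% C and G against 52.4%. The difference in matches was not tested. A match is a description of letters, and the windows leave out introns and distal sites. Matches stood at genes that read lower (Sesn1), higher (Ccng1) and neither clearly (Mdm2).

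Mdm2, the ligase that marks p53 for destruction and is itself a p53 target, showed no common direction over its 3 probe sets. On 1427718_a_at it read 9.33, 9.16, 9.14 and 8.40 on the controls and 9.18, 9.40, 9.06 and 8.97 on the KO arrays. The difference was 0.15 (interval -0.33 to 0.63, limma adjusted p 0.866), and it was -0.06 without control 4 and 0.18 without Msi2 KO 3. On 1423605_a_at the controls lay between 7.87 and 8.03. There 3 KO arrays read above them (8.26, 8.51 and 8.30) and Msi2 KO 2 below (7.64), for a difference of 0.21. It was 0.10 without Msi2 KO 3 and 0.39 without Msi2 KO 2. On 1457929_at the difference was -0.20 (interval -0.71 to 0.30), and leaving out single arrays moved it between -0.35 (control 2) and -0.06 (Msi2 KO 4).

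For Trp53inp1, Tnfrsf10b and Perp the groups overlapped on every probe set, as they did for most probe sets tested. Over all probe sets, all KO arrays lay above all controls for 3.12% and below them for 2.96%. Trp53inp1, a nuclear stress protein known to act in autophagy and cell death, read 8.15, 9.01, 8.93 and 9.01 on the controls and 9.55, 9.31, 8.16 and 8.97 on the KO arrays (1416926_at). Its lowest KO array was Msi2 KO 3 and its lowest control was control 1. The difference was 0.22 (interval -0.49 to 0.94). It was 0.50 without Msi2 KO 3, 0.016 without control 1, 0.039 without Msi2 KO 1 and -0.42 in the high-Xist arrays, where the direction turned. The other probe set, 1416927_at, gave 0.20, and -0.47 in the high-Xist arrays.

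Tnfrsf10b, the mouse receptor of the death ligand TRAIL, read 5.92, 6.01, 6.42 and 7.44 on the controls and 6.35, 6.14, 6.02 and 5.09 on the KO arrays (1421296_at). The highest value was on a control array and the lowest on a KO array, the groups overlapped, and the difference was -0.55 (interval -1.39 to 0.30, two-sided exact permutation p 0.400). It was -0.22 without control 4, -0.28 without Msi2 KO 4, -0.59 without Msi2 KO 3 and -1.07 in the high-Xist arrays. Its probe set 1422344_s_at differed by -0.05, and by 0.10 without Msi2 KO 3. Perp, a membrane protein of cell junctions and a p53 effector in cell death, read 4.74, 6.08, 6.04 and 5.43 on the controls and 6.83, 6.00, 5.72 and 6.16 on the KO arrays. The difference was 0.61 with an interval of -0.15 to 1.36, and it was 0.09 in the high-Xist arrays. Without single arrays it ran from 0.33 (control 1) to 0.77 (control 2), with 0.76 without Msi2 KO 3.

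**Figure D3:**
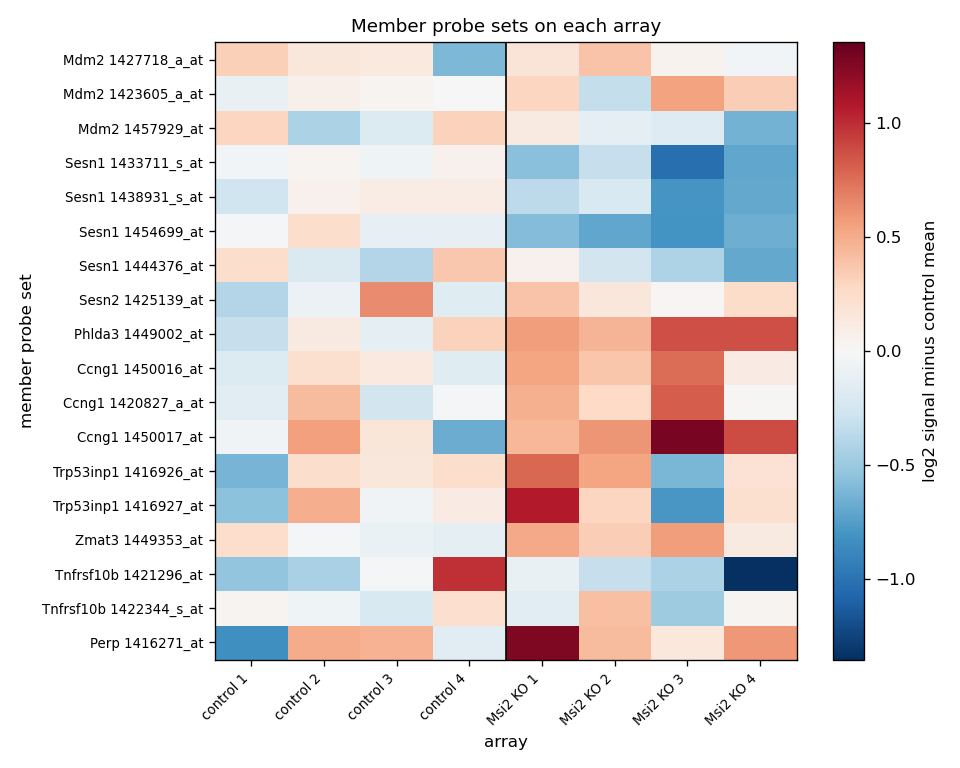
Log2 signal minus the control mean of that probe set (colour) for the 18 member probe sets (rows) on the 8 arrays (columns; the line parts controls from KO). The 3 brighter Sesn1 rows are below the control mean on all 4 KO arrays and the Phlda3 row is above it on all 4, while the Trp53inp1 rows are above it on Msi2 KO 1 and below it on Msi2 KO 3.

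Taking the brightest probe set for each gene gave similar counts. Of the 9 member genes, 0 passed the adjusted limma threshold (lowest adjusted p 0.275), as did 0 of all 10720 genes (0%). 3 were higher at an unadjusted p under 0.05 (Phlda3, Ccng1 and Zmat3) and 1 lower (Sesn1). Over all genes the shares were 5.74% and 5.66%. In all, 7 of the 9 read higher and 2 lower, with a median of 0.22, against 5403 of the 10720 genes higher and a median of 0.0022. That member median is the value of Trp53inp1, which was 0.016 without control 1 and -0.42 in the high-Xist arrays. Sesn1 and Phlda3 each had an adjusted limma p of 0.275 in this fit.

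The wider p53 pathway was described with 59 further genes, of which 45 were measured, 11 were listed at 0 and 3 had no probe set named here. 0 of the 45 passed the adjusted limma threshold. At an unadjusted limma p under 0.05, 4 were higher and 4 lower, and the same rule took 5.74% and 5.66% of all genes. All KO arrays lay above all controls for 1 of them (Chek1) and below for 3 (Cdkn1a, Gfi1 and Xpc), and over all genes these shares were 3.63% and 3.48%. The median difference was 0.0033, and that of all genes 0.0022. Among the 37 further p53 target genes, 29 were measured, of which 11 read higher and 18 lower.

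Of the genes that act on or upstream of p53, 11 of 13 read higher in KO, with a median of 0.13. Of all 10720 genes, 5403 read higher. Of these 11, 3 were close to no difference (Usp7 0.0024, Rchy1 0.0033 and Cop1 0.0046). Another 2, Chek1 and Chek2, had an unadjusted limma p under 0.05, as had 5.74% of all genes on the higher side. The checkpoint kinase Chek1 averaged 8.33 ± 0.13 in controls against 8.68 ± 0.21 in KO (SD, n = 4 each) on 1449708_s_at, a difference of 0.35 (limma adjusted p 0.423). Its 1439208_at also had every KO array above every control (0.34), while 1420032_at (0.14) and 1450677_at (0.23) overlapped. The kinase Chek2 averaged 7.70 ± 0.10 in controls against 8.07 ± 0.26 in KO (SD, n = 4 each), a difference of 0.37 that was 0.26 without Msi2 KO 3. Atm, the kinase that signals DNA breaks to p53, went the other way, from 9.13 ± 0.31 to 8.60 ± 0.22, a difference of -0.54 (limma adjusted p 0.366), and -0.64 without Msi2 KO 3. A second Atm probe set, 1421205_at, differed by 0.17, so its probe sets disagreed in sign. Mdm4, the partner of Mdm2 in restraining p53, differed by 0.06 (interval -0.26 to 0.38). Cdkn2a, whose ARF product blocks Mdm2, was listed at 0.

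Among the cell cycle arrest targets, 5 of 9 were measured, with 2 higher, 3 lower and a median of -0.30. Cdkn1a, the gene of the cell cycle inhibitor p21 and the best known p53 target, read 8.01, 8.60, 8.31 and 7.92 on the controls and 7.28, 7.79, 7.41 and 7.51 on the KO arrays. Every KO array was below every control, and the difference was -0.71 (interval -1.13 to -0.30, limma adjusted p 0.276, two-sided exact permutation p 0.0286). It was -0.68 when Msi2 KO 3 was left out. A second probe set, 1421679_a_at, differed by -0.37 and its groups overlapped. Psrc1, a spindle protein, differed by -0.31. Plk2, Plk3, Rprm and Sfn were listed at 0.

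Gfi1, a repressor that keeps blood stem cells quiescent and has been described as a p53 target there, was lower on every KO array than on every control. It read 9.70, 10.03, 10.23 and 10.25 on the controls and 9.69, 9.47, 9.25 and 9.39 on the KO arrays. The lowest control and Msi2 KO 1 lay almost together. The difference was -0.60 (interval -0.97 to -0.23, limma adjusted p 0.287), and -0.53 without Msi2 KO 3. Ndn, the gene of necdin and another p53 target described in stem cells, differed by -0.58 with Msi2 KO 3 at 5.43 and the other KO arrays at 8.07 to 8.41, and by 0.12 without Msi2 KO 3.

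Of the cell death targets, 8 of 11 were measured, 3 higher and 5 lower, with a median of -0.02. Bid, a BH3-only protein that carries death receptor signals to mitochondria, differed by 0.62 (interval 0.0028 to 1.24, limma adjusted p 0.436), and its other probe sets by 0.11 and 0.05. In the fit over probe sets the unadjusted limma p of the same Bid probe set, 1417045_at, was 0.0501. The difference was 0.47 without Msi2 KO 3 and 0.41 without control 1. Apaf1, the scaffold of the apoptosome, differed by -0.13 on 1452870_at and by 0.14 on 1450223_at, and the first ran from -0.32 to -0.02 when single arrays were left out. Bbc3 and Fas were listed at 0, and Bax was not analysed here. Of the repair targets all 7 were measured, 1 higher and 6 lower, with a median of -0.14. Of these 6, Ercc5 (-0.0021) and Rrm2b (-0.015) were close to no difference, and the other Rrm2b probe sets ran from -0.65 to 0.44. Polh was lower on its brightest probe set, 1447837_x_at (-0.20). It was higher on 1420988_at (0.27), 1450075_at (0.59) and 1459539_at (0.19, near background). Xpc, which recognises DNA damage, averaged 8.15 ± 0.24 in controls against 7.55 ± 0.38 in KO (SD, n = 4 each), with the groups apart (difference -0.60, limma adjusted p 0.369, and -0.48 without Msi2 KO 3). The bypass polymerase Polk differed by -0.45 on 1449483_at (-0.21 without Msi2 KO 4) and by 0.18 on 1419501_at.

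The targets in metabolism, autophagy and redox had 5 of 7 higher and a median of 0.11. Steap3, a metalloreductase that red cell precursors use to take up iron, differed by 0.71 on 1423468_at (0.38 without Msi2 KO 3), where the groups overlapped. Its 2 other probe sets had every KO array above every control, with differences of 1.18 (1430355_a_at) and 0.76 (1453498_x_at) and limma adjusted p of 0.378 and 0.438. The control mean of the first was 3.96, near background. Ddit4, a stress-induced brake on mTORC1, differed by 0.31. Of the 7 relatives of the members 3 were measured and 4 (Trp63, Trp73, Trp53inp2 and Phlda2) were listed at 0. Phlda1 averaged 3.74 in controls and 4.32 in KO, both below 5, and no fold is given.

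**Figure D4:**
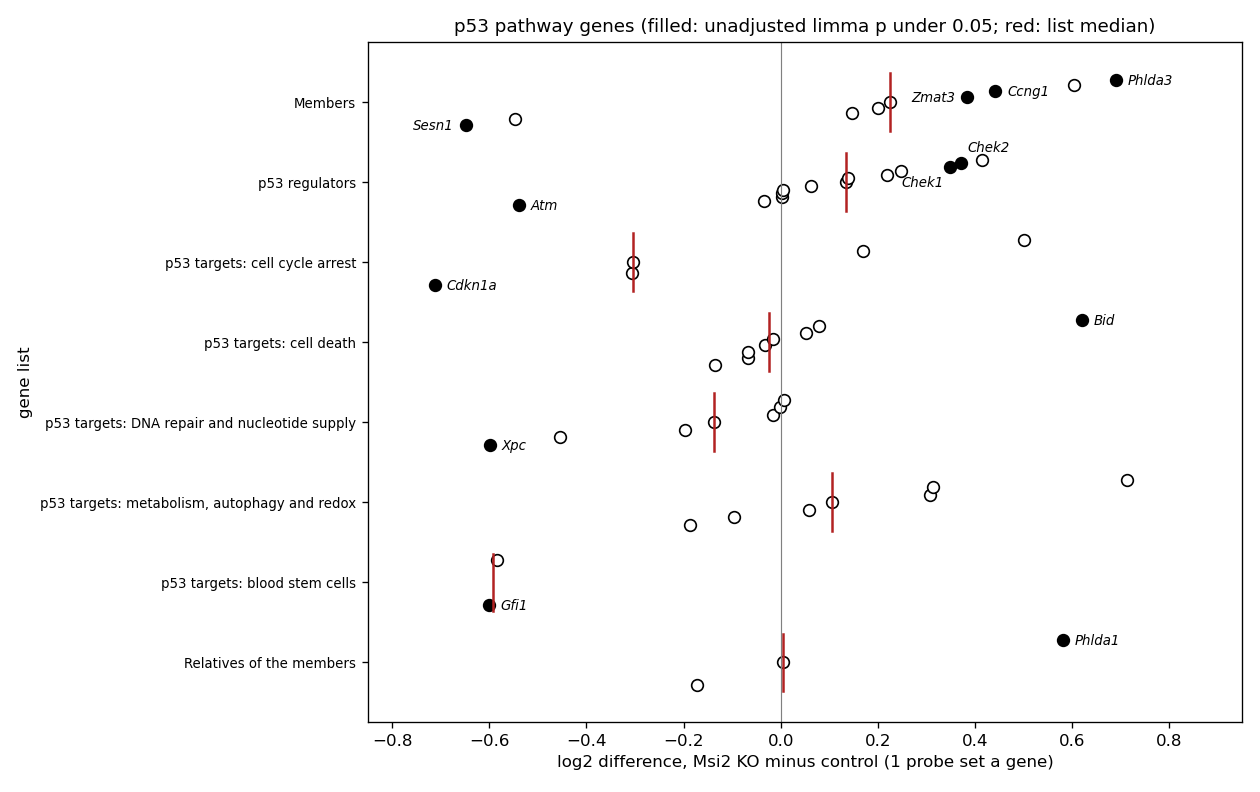
Log2 difference between Msi2 KO and control (x axis) of each measured gene, by list (y axis), with 1 probe set a gene and the list median in red. Filled points, which are named, had an unadjusted limma p under 0.05, and none passed after adjustment. Sesn1 (-0.65), Cdkn1a (-0.71), Gfi1 (-0.60) and Xpc (-0.60) lie to the left, and Phlda3 (0.69) and Ccng1 (0.44) to the right.

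Markers of several other cell types read higher in KO, but no single marker passed the adjusted limma threshold (lowest adjusted p 0.176) and the sums of every measured list overlapped between the groups. All 8 measured erythroid markers read higher in KO, and their summed log2 level ran from 54.3 to 64.3 in controls and from 61.7 to 76.3 in KO (Hba-a1 listed at 0). All 5 measured macrophage and monocyte markers read higher, with sums of 24.1 to 34.4 and 31.1 to 39.1 (C1qa and C1qc listed at 0), although their mean level on Msi2 KO 3 (6.22) was below that of 3 controls. So did 3 of 4 mast cell and basophil markers, with sums of 18.8 to 22.710 and 22.708 to 28.6, which barely overlapped. The 3 measured granulocyte markers read higher too, with sums of 20.9 to 24.3 and 21.9 to 24.2. Of these, S100a9 (0.06) and Ngp (0.03) were close to no difference. Among the erythroid markers Slc4a1 and Rhag, and among the macrophage markers Adgre1, had both group means near background. Both measured B cell markers read lower, with sums of 14.7 to 17.0 and 13.2 to 15.3. Of the 2 measured megakaryocyte markers and the 2 of endothelial and stromal cells, 1 each read higher. Of the LSK markers 6 of 7 read lower, with sums of 62.9 to 64.9 and 54.0 to 64.2, the lowest on Msi2 KO 3. Their mean level on Msi2 KO 1, 2 and 4 (9.05, 9.18 and 9.17) lay within the control range of 8.99 to 9.28. The mean erythroid level was highest on Msi2 KO 3 (9.54), where all 3 Ccng1 probe sets and Steap3 were also highest and all 3 brighter Sesn1 probe sets lowest. That level was higher on control 2 (8.04) than on Msi2 KO 1 (7.71). As means over 3 probe sets relative to the control mean, Sesn1 was 0.11 and -0.50 on these arrays, and Ccng1 0.40 and 0.49. The part of all these cell types in the differences of Sesn1, Phlda3, Ccng1 and Zmat3 was not tested.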

How the data were processed

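The authors deposited log2 signals, 1 per probe set and array, which were made with RMA (background correction, quantile normalization and probe summary), per the submitters' processing notes. No version of RMA was given there. Of 45101 probe sets, 20664 were at 0 on all 8 arrays, a step not stated, and were left out with 33 AFFX controls. Names came from the platform annotation, updated through gene IDs with a RefSeq table of GRCm38.p6. 34958 probe sets carried 1 name, 932 several and 9211 none here, and those with several named no gene.

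All 24404 probe sets, or 10720 genes by their brightest probe set, were fitted with limma 3.58.1 in R 4.3.3 (lmFit, eBayes, two-sided) and adjusted by Benjamini-Hochberg, with a threshold of 0.05. Intervals cover 95%. Exact permutation tests over arrays used all 70 assignments. A group mean below 5 was called near background. The fit was checked on simulated data. The members and lists were chosen with earlier results of these data known. The named genes were all members, the 2 genes with the smallest p in each list, and Cdkn1a, Bax, Bbc3, Fas, Mdm4 and Sesn3. Chek1, Usp7, Rchy1, Cop1, Ercc5, Rrm2b, Polh, other genes listed at 0 and further probe sets were named after their values were seen. A planned search for genes with a pattern like that of Trp53 was not made, since Trp53 was not analysed here. Alternatives were a second quantile normalization, centring on medians, dropping dim probe sets, a robust prior with an intensity trend, weights per array, a replicate block, Xist as a covariate, high-Xist arrays alone, keeping probe sets at 0 in the adjustment, other summaries per gene and leaving out each array.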

Additional observations from a re-analysis of the deposited data

Results flagged for a closer look

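In 4 of 74 groups of 4 arrays examined for the members, Msi2 and the named pathway genes, 1 array lay far from the other 3 by Dixon's criterion, and chance gives about 1 in 20. On 1438931_s_at of Sesn1, control 1 read 8.99 and the other controls 9.32 to 9.36. On 1416926_at of Trp53inp1, control 1 read 8.15 and the others 8.93 to 9.01. Steap3 read 8.50 on Msi2 KO 3 and 7.10 to 7.32 on the other KO arrays. Ndn read 5.43 on Msi2 KO 3 and 8.07 to 8.41 on the others.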

How the results depend on the processing

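No member probe set passed the adjusted threshold under the alternatives that held it (up to 17, lowest adjusted p 0.182), and no member or pathway gene did under theirs (up to 19, lowest adjusted p 0.138 for members and 0.143 for the named pathway genes). Of 297 member probe set values under the alternatives, 290 kept their direction, and 7 turned. The Sesn1, Phlda3, Ccng1 and Zmat3 probe sets kept theirs in every setting that held them, but with array weights the Ccng1 differences fell from 0.44 to 0.28 (1450016_at) and from 0.40 to 0.20 (1420827_a_at). With array weights 1422344_s_at of Tnfrsf10b was 0.046. In the arrays with high Xist alone, Trp53inp1 was -0.42 (1416926_at, in both fits) and -0.47 (1416927_at), and Ddit4 was -0.17. With a gene's probe sets averaged, Apaf1 was 0.0042. With probe sets below the median level left out, 1 member probe set was higher at an unadjusted p under 0.05 and 0 had all KO arrays above control, since Phlda3, Zmat3 and 1450017_at of Ccng1 were no longer tested. Over the 8 left-out arrays the count of higher member probe sets at an unadjusted p under 0.05 ran from 2 (without control 4, Msi2 KO 1 or Msi2 KO 3) to 5, and that of probe sets with all KO arrays above control from 1 to 3, where fewer arrays separate more easily. In the same settings Mdm2 1427718_a_at, in both fits, ran from -0.055 to 0.25, 1422344_s_at of Tnfrsf10b from -0.20 to 0.097, 1416927_at of Trp53inp1 from -0.095 to 0.52, Mdm4 from -0.018 to 0.14, Ndn from -0.87 to 0.12 and Sesn3 from -0.34 to 0.13. The labels do not say whether equal replicate numbers mark pairs. Same-numbered deviations from the group mean correlated at 0.13, -0.12, 0.08 and -0.04 over probe sets. With only 4 arrays a group, each centred on its group mean, these values cannot decide it. With the replicate block 4 member probe sets were higher and 3 lower at an unadjusted limma p under 0.05, and 0 passed adjustment.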
